A study of Mus musculus with 8 samples.

Results

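The amino acid and neurotransmitter transporter genes were taken as the autosomal protein-coding genes of the Slc1, Slc6, Slc7, Slc17, Slc18, Slc32, Slc36 and Slc38 families in the RefSeq annotation of the mouse build GRCm38. There were 65 such genes among 20665 autosomal protein-coding genes, and 4 on the X chromosome were left out. H3K27me3, the repressive histone mark of Polycomb complexes, was mapped in mouse 3T3 cells by sequencing of immunoprecipitated chromatin. 3T3 is an immortalised line of embryonic fibroblasts. Of the 6 H3K27me3 libraries, 3 came from cells with a control construct and 3 from cells with a construct overexpressing NNMT, an enzyme that methylates nicotinamide with S-adenosylmethionine. An input library was also made for each construct. Both kinds of cell were kept for 48 h in methionine-free medium brought to 10 µM methionine, with 10% dialyzed serum, so the low methionine was shared by all groups. The deposited table lists 265968 regions with 3 values for one set of libraries and 3 for another, and does not say which set is which construct. The set that comes first in the table is called set 1 and the other set 2, and a direction here says nothing of which construct was higher. Because the order of libraries within a set is unknown too, the error of a ratio is its range over all 9 pairings of libraries across the sets.

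Solute carriers of these families move amino acids and transmitters across the plasma membrane or into synaptic vesicles. SLC1 members take up glutamate or exchange neutral amino acids, SLC6 members take up monoamines, GABA, glycine and other amino acids with sodium, and SLC7 members carry cationic amino acids or form the light subunits of heterodimeric exchangers. SLC17, SLC18 and SLC32 include the vesicular carriers of glutamate, monoamines, acetylcholine and GABA, while SLC36 and SLC38 carry small neutral amino acids. Many of these genes are known for use in neurons, glia, kidney or gut and not in fibroblasts. H3K27me3 is known to cover silent developmental and cell type genes, with CpG-rich promoters as frequent sites of Polycomb binding.

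A listed region was counted at a gene where it overlapped the gene's span or the 2 kb on either side. For 30 of the 65 genes a RefSeq start (GRCm38.p6) lay within 100 bp of the edge of the annotated span, and in 5 of these the start itself lay in a listed region. The share over all 12679 autosomal genes with such a start was 7.0%. The 250 bases upstream of these 5 starts are shown with those of Slc1a1, whose start lay 0.835 kb from the nearest listed region. They are written 5′ to 3′ on the gene's strand, with each CpG in capitals, the feature named above for Polycomb binding.
Slc17a7 promoter, chr7:45163671-45163920, plus strand: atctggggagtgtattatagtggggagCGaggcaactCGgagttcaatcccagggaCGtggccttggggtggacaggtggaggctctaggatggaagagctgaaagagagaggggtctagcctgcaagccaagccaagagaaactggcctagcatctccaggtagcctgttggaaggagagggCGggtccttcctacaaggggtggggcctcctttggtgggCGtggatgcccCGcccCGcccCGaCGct
Slc6a16 promoter, chr7:45240503-45240752, plus strand: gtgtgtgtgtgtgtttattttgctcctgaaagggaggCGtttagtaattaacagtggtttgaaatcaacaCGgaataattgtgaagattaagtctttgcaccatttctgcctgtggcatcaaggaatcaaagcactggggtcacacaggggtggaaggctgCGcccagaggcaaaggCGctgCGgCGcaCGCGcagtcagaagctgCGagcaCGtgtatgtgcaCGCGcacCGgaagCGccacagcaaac
Slc7a8 promoter, chr14:54781887-54782136, minus strand: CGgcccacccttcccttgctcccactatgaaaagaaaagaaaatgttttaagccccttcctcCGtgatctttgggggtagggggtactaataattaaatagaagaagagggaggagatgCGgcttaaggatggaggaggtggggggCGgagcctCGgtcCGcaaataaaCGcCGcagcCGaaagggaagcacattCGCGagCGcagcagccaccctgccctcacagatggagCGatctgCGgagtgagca
Slc17a2 promoter, chr13:23806743-23806992, plus strand: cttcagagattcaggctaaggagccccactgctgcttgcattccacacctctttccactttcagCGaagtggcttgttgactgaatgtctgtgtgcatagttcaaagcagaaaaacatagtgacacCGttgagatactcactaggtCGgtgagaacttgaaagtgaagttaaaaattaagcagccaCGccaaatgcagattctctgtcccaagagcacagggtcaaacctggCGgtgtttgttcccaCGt
Slc36a3 promoter, chr11:55151709-55151958, minus strand: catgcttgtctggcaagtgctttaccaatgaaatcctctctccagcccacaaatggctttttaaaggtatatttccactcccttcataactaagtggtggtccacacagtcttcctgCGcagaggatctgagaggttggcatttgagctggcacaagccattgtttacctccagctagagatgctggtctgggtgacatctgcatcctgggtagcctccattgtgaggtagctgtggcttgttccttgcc
Slc1a1 promoter, chr19:28834885-28835134, plus strand: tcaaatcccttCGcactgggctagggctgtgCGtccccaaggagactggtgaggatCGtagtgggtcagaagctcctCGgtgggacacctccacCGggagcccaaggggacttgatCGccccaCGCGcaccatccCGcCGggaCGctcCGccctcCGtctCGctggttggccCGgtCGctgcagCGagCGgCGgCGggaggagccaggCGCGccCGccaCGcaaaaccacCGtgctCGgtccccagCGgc
The CpG count in these stretches was 9 for Slc17a7, 14 for Slc6a16, 14 for Slc7a8, 6 for Slc17a2, 1 for Slc36a3 and 27 for Slc1a1. Over the 30 transporter genes the median was 10.5, beside 9.0 over all 12679 genes and 3.0 over the 888 genes of the genome whose start lay in a listed region. CpG, the letters CG, reads the same on both strands. At least 10 of them were found in 50% of the transporter stretches and in 49.4% of all stretches of that length.

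Listed H3K27me3 differences were frequent at the transporter genes and ran in both directions. At least 1 region was listed at 44 of the 65 genes (67.7%), against 32.7% of all autosomal protein-coding genes. A region higher in set 1 was present at 40 (27.8% of all genes) and a region higher in set 2 at 34 (19.1% of all genes), with both kinds at 30. The list holds only regions already selected for a difference, so a gene without a region is not a gene without the mark. The difference in share was present in each length class. Below 20 kb, 13 of 16 transporter genes had a region (81.2%, 28.5% of all such genes), from 20 to 50 kb 18 of 27 (66.7%, 33.4% of all) and from 50 kb upward 13 of 22 (59.1%, 42% of all).

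The 44 genes held 696 distinct regions covering 740.2 kb, 462 higher in set 1 and 234 higher in set 2. That is 66.4% higher in set 1, beside 60.3% of the regions at all protein-coding genes and 59.2% of all autosomal regions. The 6 values of a region did not overlap between the sets in 424 of the 696, beside 65.0% of all autosomal regions. The 6 values of a gene are the sums of the deposited values over its regions. The sums were higher in set 1 for 31 genes and in set 2 for 13, or 70.5% in set 1 beside 69% of all genes with regions. The sets did not overlap for 34 genes, with set 1 above set 2 in 23 (58.7% of all genes with regions) and set 2 above set 1 in 11 (22.5%). These counts lay near the background in both directions. The values overlapped for the other 10. No overlap of 3 against 3 libraries corresponds to a two-sided exact permutation p of 0.1, the smallest this design allows, so no single gene can reach 0.05.

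Summed over autosomal regions, set 1 exceeded set 2 by 1.143-fold, or 0.19 on the log2 scale. The median log2 ratio (set 1 over set 2) was 0.21 over the 44 genes and 0.36 over all genes with regions. With the libraries brought to equal sums these medians became 0.01 and 0.17, a shift of 0.19. The transporter genes then stood at 23 higher in set 1 and 21 in set 2 (52.3% in set 1, beside 60.8% of all genes). This scaling turned the direction of 8 genes with small ratios, Slc6a17, Slc6a18, Slc7a9, Slc7a12, Slc17a1, Slc17a2, Slc17a3 and Slc38a8, and of no gene named below as higher in set 2. At equal sums the sets no longer overlapped, with set 2 higher, at Slc6a11, Slc6a17, Slc7a11, Slc17a3 and Slc38a8. They came to overlap at 6 genes higher in set 1 as deposited, Slc7a9, Slc7a12, Slc17a1, Slc17a4, Slc36a2 and Slc38a11. The other 17 genes higher in set 1 and all 11 higher in set 2 kept their call. Library depth is unknown and no source used here states whether the inputs were subtracted, so a difference in DNA dosage and one in the mark cannot be told apart. The 11 fibroblast genes looked up, among them Col1a1, Pdgfra and Vim, held no listed region, beside 32.7% of all genes with at least 1. A gene without a region may still carry the mark, so this is no check of the cell type. The table holds no expression values, so the cell type itself could not be checked.

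**Figure D1:**
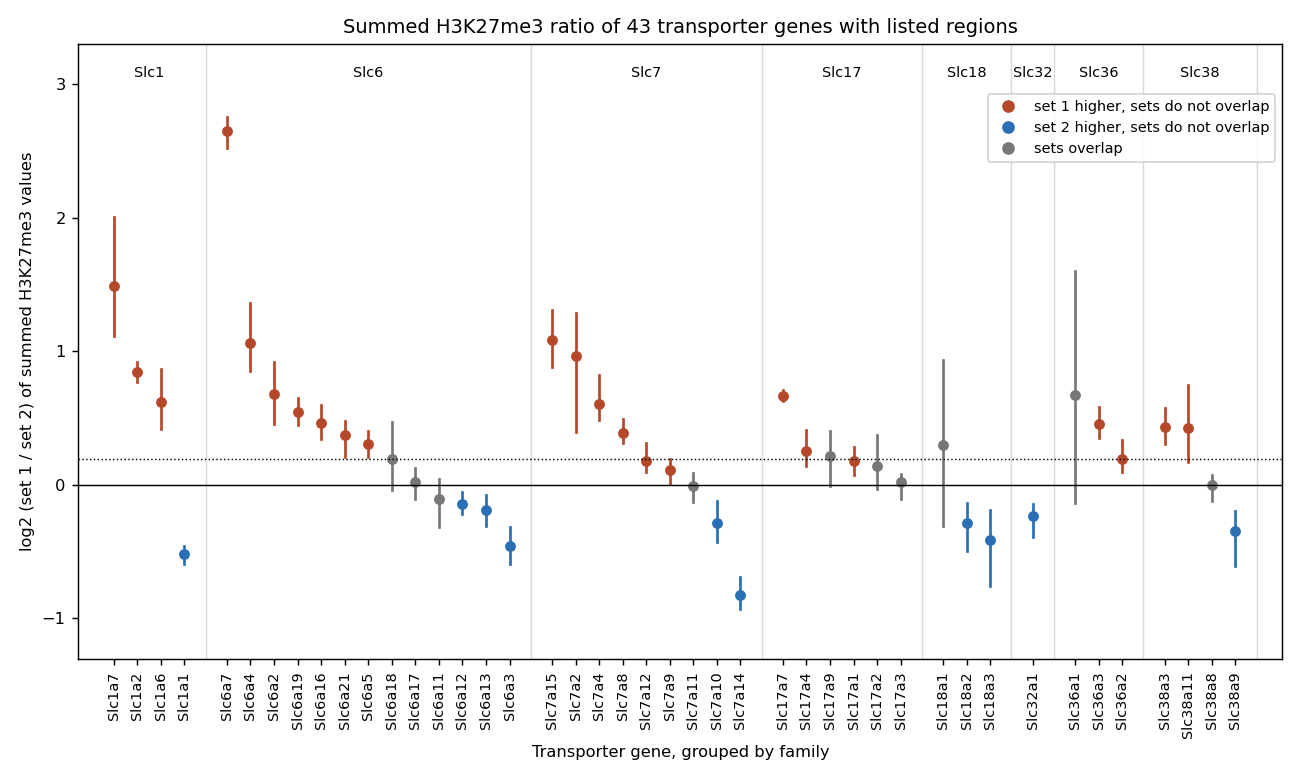
Log2 ratio of set 1 over set 2 of the summed H3K27me3 values of 43 transporter genes with listed regions, grouped by family; vertical lines span the 9 library pairs and the dotted line marks the ratio over all autosomal regions (0.19). Points run from 2.65 at Slc6a7 to −0.83 at Slc7a14, with genes on both sides of 0 in 5 of the 8 families.

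The families differed in how many genes were listed and in the balance of the sets. All 3 Slc18 genes and Slc32a1 held regions, as did 14 of 17 Slc6 genes, 3 of 4 Slc36, 6 of 9 Slc17, 9 of 14 Slc7, 4 of 7 Slc1 and 4 of 10 Slc38 genes. Per 100 kb of gene and flank, Slc38 held 6.417 regions, Slc18 held 11.87, Slc7 held 17.51 and Slc17 held 23.23. Slc1, Slc36 and Slc6 held 31.12, 33.53 and 33.97, and the single gene of Slc32 stood highest at 48.05. The density over all genes was not computed. Summed over a family, set 1 lay above set 2 without overlap for Slc36 by 1.243-fold (1.205 to 1.289 over library pairs), for Slc17 by 1.219-fold (1.16 to 1.277) and for Slc38 by 1.186-fold. Slc7 followed at 1.125-fold and Slc1 at 1.098-fold. Slc32, a family of 1 gene, went the other way, with set 2 above set 1 by 1.174-fold (1.102 to 1.309). The sets overlapped for Slc6 (log2 0.05, exact permutation p = 0.4) and for Slc18 (log2 −0.09, exact permutation p = 0.4). After equal sums Slc36 and Slc17 stayed higher in set 1 at log2 0.12 and 0.09. For Slc17 this came with Slc17a7, since the other Slc17 genes together stood at −0.05. At equal sums Slc1, Slc6 and Slc7 turned to −0.06, −0.14 and −0.02, and Slc38 came to 0.05 with overlapping sets.

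A comparison of 2 families within a library does not depend on the scaling of that library. Of the 28 pairs of families, 21 had a log2 ratio that did not overlap between the sets, each with an exact permutation p of 0.1, or 0.1333 at the lowest after Benjamini and Hochberg adjustment over the 28. Slc32 against Slc36 gave the largest difference, −0.54 on the log2 scale (−0.74 to −0.42 over pairs of libraries). Slc17 against Slc32 gave 0.52. Pairs that overlapped were Slc1 with Slc7, Slc6 with Slc18, Slc7 with Slc38, Slc17 with Slc36, Slc17 with Slc38, Slc18 with Slc32 and Slc36 with Slc38. No pair reached 0.05, which 3 against 3 libraries do not allow. All regions were listed for a difference between these same sets, so a lack of overlap was favoured beforehand. The p-values therefore describe these sums and do not test whether families differ. The 28 pairs reuse 8 families, Slc32 being 1 gene, and no share for pairs of other gene groups was computed.

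**Figure D2:**
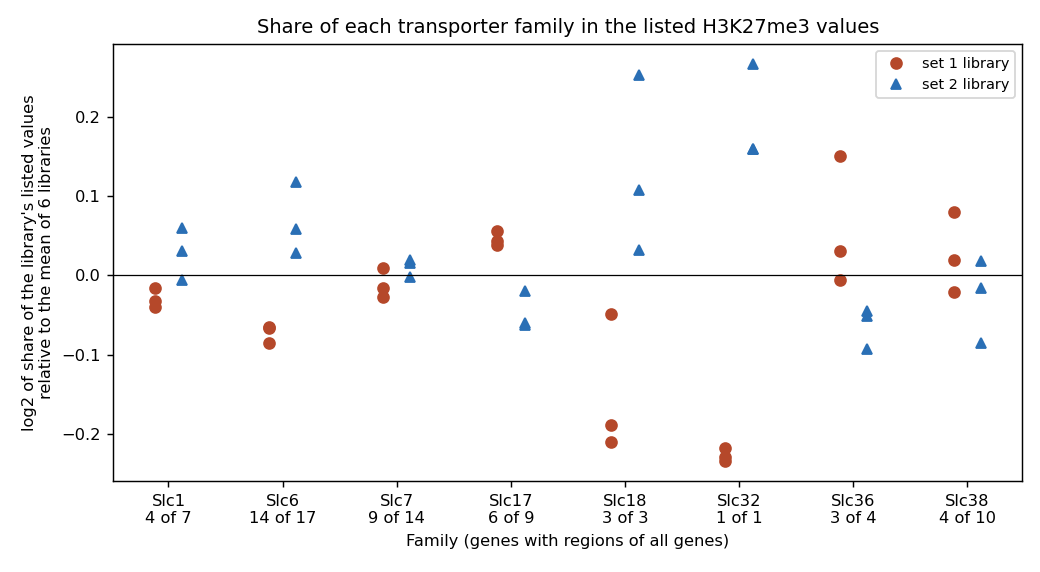
Share of each family in the listed autosomal H3K27me3 values of a library, as log2 relative to the mean of the 6 libraries; circles are set 1 and triangles set 2 libraries, with the number of genes with regions under each family name. The set 1 libraries lie above the set 2 libraries for Slc17 and Slc36 and below them for Slc1, Slc6, Slc18 and Slc32, and the sets overlap for Slc7 and Slc38.

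The plasma membrane glutamate transporters included Slc1a2 and Slc1a1, the genes with the largest covered length of the 44, and they went in opposite directions. Slc1a2, the main glutamate transporter of astrocytes (chr2:102658239-102790784), held 97 regions that were all higher in set 1 and covered 85.65 kb. Its summed values were 18819, 18789 and 17975 for set 1 against 9968, 10410 and 10536 for set 2. All set 1 libraries lay above all set 2 libraries, by 1.798-fold (1.706 to 1.888). Among all autosomal genes, 40 had at least 97 regions with every one in the same direction. The region of Slc1a2 with the largest values, chr2:102733051-102743650, held 2577, 2512 and 2356 for set 1 against 1580, 1360 and 1517 for set 2 in the authors' deposited table.

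Slc1a1, the glutamate and cysteine transporter of neurons and kidney (chr19:28835135-28913960), showed the reverse. Its 27 regions covered 81.6% of the gene and its flanks, 23 of them higher in set 2. Summed values were 13837, 13359 and 12715 for set 1 against 19017, 18980 and 19126 for set 2. Set 2 lay above set 1 in every library, by 1.431-fold (1.372 to 1.504). Within a library, the log2 ratio of Slc1a2 to Slc1a1 was 0.48 in set 1 and −0.89 in set 2 on average, a difference of 1.37 (1.30 to 1.43), given as a description because the pair was chosen after its values were seen. The longest Slc1a1 region, chr19:28837451-28850150, held 2143, 2190 and 1961 for set 1 against 3624, 3474 and 3743 for set 2 in the authors' deposited table.

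The other glutamate transporters were Slc1a6 of cerebellar Purkinje cells, Slc1a7 of the retina and Slc1a3 of glia. Slc1a7 held 8 regions, all higher in set 1, with sums of 476, 506 and 557 for set 1 against 220, 188 and 139 for set 2 (2.814-fold, 2.164 to 4.007). Each set 1 value lay far above each set 2 value. Slc1a6 held 6 regions with sums of 258, 295 and 251 for set 1 against 188, 174 and 162 for set 2, again without overlap (1.534-fold). With regions of at least 500 bp alone, its sets overlapped. No region was listed at Slc1a3, or at Slc1a4 and Slc1a5, the neutral amino acid exchangers of the family.

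The monoamine reuptake transporters, targets of antidepressants and psychostimulants, all held regions, and the dopamine carrier stood opposite to the others. Slc6a4, the serotonin transporter (chr11:76998597-77032343), held 18 regions, all higher in set 1. Its sums were 1194, 1351 and 1216 for set 1 against 525, 661 and 612 for set 2, with no overlap (2.092-fold, 1.806 to 2.573). Slc6a2, the noradrenaline transporter, held 8 regions over only 2.35 kb, 7 higher in set 1 and 4 with sets that did not overlap. Its sums were 484, 402 and 366 for set 1 against 258, 267 and 256 for set 2, again without overlap (1.603-fold). The sets overlapped at its largest region, with 203, 124 and 160 for set 1 against 81, 161 and 102 for set 2 in the authors' deposited table. Slc6a3, the dopamine transporter (chr13:73536128-73578672), held 26 of 29 regions higher in set 2. Its sums were 4334, 4156 and 3968 for set 1 against 5381, 5983 and 5748 for set 2, so set 2 was higher in every library (1.374-fold, 1.242 to 1.508). The difference between Slc6a4 and Slc6a3 within a library was 1.53 on the log2 scale (1.32 to 1.74) between the sets, and that between Slc6a2 and Slc6a3 was 1.13, both chosen after their values were seen.

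Among the GABA, betaine and taurine transporters, sums higher in set 2 came with small ratios. Slc6a13, a GABA and taurine carrier of liver and kidney, had 7734, 7672 and 7319 for set 1 against 8639, 9036 and 8149 for set 2 (1.136-fold, 1.054 to 1.235). Its sets did not overlap. Slc6a12, the betaine transporter, was 1.105-fold higher in set 2 without overlap. It lies next to Slc6a13 on chromosome 6, at a gap of 4.852 kb, so they are not separate places in the genome. Slc6a11, a glial GABA transporter on the same chromosome, held 62 regions split 32 to 30 between the directions. Its sums were 14116, 14220 and 13244 for set 1 against 13792, 16519 and 14357 for set 2, with overlapping sets (exact permutation p = 0.4). At equal sums its sets did not overlap, with set 2 higher (log2 −0.29, beside −0.10 as deposited). No region was listed at Slc6a6, the taurine transporter.

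Among glycine and proline transporters, Slc6a5, the neuronal glycine transporter, held 22 regions over 33.9 kb. Its sums were 8933, 9129 and 8752 for set 1 against 6898, 7571 and 7247 for set 2, higher in set 1 without overlap (1.235-fold). Slc6a7, the brain proline transporter, had the largest ratio of all 44 genes. Its 3 regions held 791, 786 and 838 for set 1 against 124, 124 and 137 for set 2, 6.273-fold apart (5.737 to 6.758), and 34 autosomal genes higher in set 1 had a ratio at least as large. These regions lay in the flank and did not touch the gene span, so they are regions beside Slc6a7. Without the one also within reach of Cdx1, the log2 ratio was 3.25 in place of 2.65. Slc6a9, the glial glycine transporter, held none.

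The other amino acid members of Slc6 were higher in set 1 or overlapped. Slc6a16 held 12 regions, all higher in set 1, with sums of 8032, 8435 and 7944 for set 1 against 5559, 6258 and 5935 for set 2 (1.375-fold). Slc6a19, the neutral amino acid transporter of kidney and gut, was 1.458-fold higher in set 1 without overlap, and Slc6a21 1.298-fold. Slc6a17, a synaptic vesicle carrier of neutral amino acids, had sums of 9886, 10655 and 10172 for set 1 against 9917, 10616 and 9785 for set 2. Its sets overlapped (log2 0.02, exact permutation p = 0.6). Slc6a18, next to Slc6a19 on chromosome 13, also overlapped (1.141-fold, exact permutation p = 0.2). Slc6a15 held no region.

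**Figure D3:**
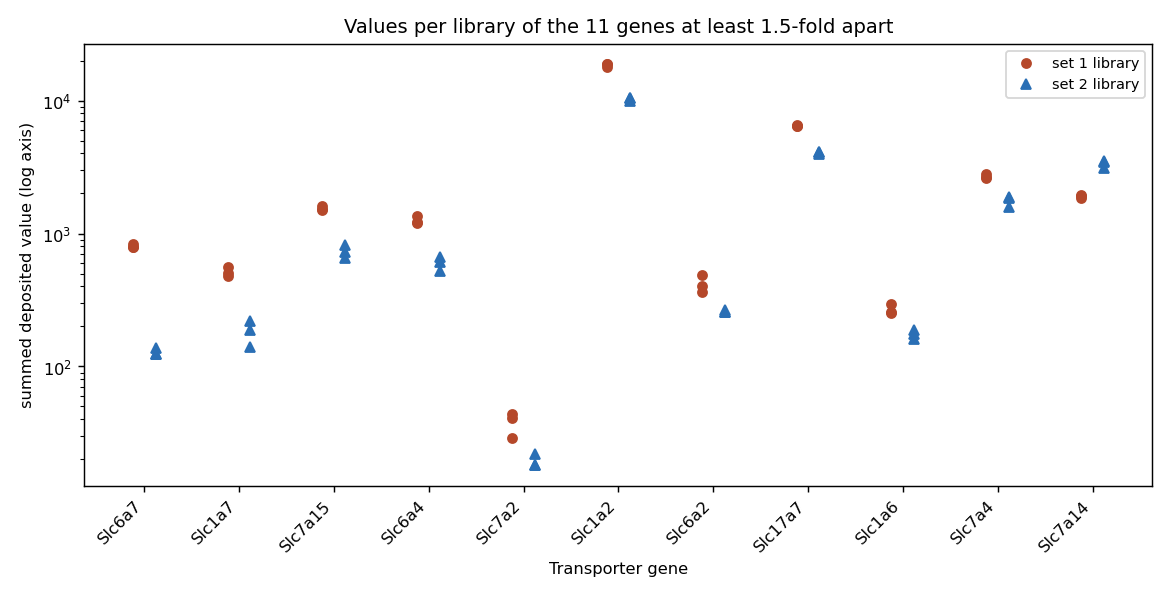
Summed deposited values per library, on a log axis, of the 11 genes whose sets did not overlap and lay at least 1.5-fold apart; circles are set 1 and triangles set 2 libraries. Set 1 is higher at 10 of them, from 44, 41 and 29 at Slc7a2 to 18819, 18789 and 17975 at Slc1a2, and set 2 is higher at Slc7a14.

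As deposited, 11 transporter genes had sets that did not overlap and lay at least 1.5-fold apart. Set 1 was higher at 10 of them (32.8% of all genes with regions) and set 2 at 1 (12.5%). The gene with set 2 higher was Slc7a14, a cationic amino acid transporter family member of neuronal lysosomes (chr3:31202854-31310567), with 26 of 26 regions in that direction. Its sums were 1940, 1902 and 1862 for set 1 against 3442, 3537 and 3131 for set 2 (1.772-fold, 1.614 to 1.9). The other cationic carriers with regions went the other way. Slc7a4 had 2660, 2800 and 2617 for set 1 against 1873, 1836 and 1587 for set 2 (1.525-fold). Slc7a2, an arginine transporter, had 44, 41 and 29 for set 1 against 22, 18 and 18 for set 2 (1.966-fold, 1.318 to 2.444), from 2 regions of 0.25 kb in all. Both were without overlap, but the Slc7a2 values were the lowest of all 44 genes. Without 2 regions shared with its neighbour P2rx6, the log2 ratio of Slc7a4 was 0.26 in place of 0.61, still without overlap. The 1.5-fold split depended on the scaling. At equal sums Slc1a6, Slc6a2, Slc7a4 and Slc17a7 fell below 1.5-fold (log2 0.42, 0.49, 0.42 and 0.47). Slc1a1, Slc6a3 and Slc18a3 rose above it with set 2 higher, without overlap (−0.71, −0.65 and −0.61). The shares over all genes at 1.5-fold were not computed at equal sums.

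Slc3a1 and Slc3a2 are the known heavy subunits for light subunits of Slc7, though not for every one, and neither held a region. Slc7a15 held 29 regions, all higher in set 1, with sums of 1529, 1496 and 1616 for set 1 against 652, 722 and 813 for set 2 (2.122-fold, 1.84 to 2.479). Slc7a8, an exchanger of neutral amino acids, had the largest sums of the family, 6742, 6993 and 6739 for set 1 against 4981, 5412 and 5241 for set 2 (1.31-fold). All set 1 libraries lay above all set 2 libraries for both. Slc7a9, the cystine carrier of the kidney, had 2397, 2427 and 2247 for set 1 against 2233, 2124 and 2185 for set 2, a narrow gap without overlap (1.081-fold) that was lost at equal sums (log2 −0.08) and with a flank of 5 kb. Slc7a12 was 1.131-fold higher in set 1 without overlap. Slc7a10, a carrier of D-serine and small neutral amino acids, was 1.221-fold higher in set 2 without overlap, and Slc7a11, the cystine and glutamate exchanger, overlapped (1.007-fold, exact permutation p = 0.9). No region was listed at Slc7a5, Slc7a6, Slc7a7 or Slc7a13, or at the cationic carrier Slc7a1.

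The vesicular glutamate transporter gene Slc17a7 and the vesicular GABA transporter gene Slc32a1 stood on opposite sides. Slc17a7 (chr7:45163921-45176139) had sums of 6472, 6395 and 6529 for set 1 against 4100, 4133 and 3990 for set 2, higher in set 1 without overlap (1.587-fold, 1.547 to 1.636). Slc32a1 (chr2:158607260-158615747) had 2570, 2609 and 2460 for set 1 against 2878, 3219 and 2875 for set 2, higher in set 2 without overlap (1.174-fold). Within a library the log2 ratio of Slc17a7 to Slc32a1 was 1.34 in set 1 and 0.45 in set 2 on average, a difference of 0.90 (0.78 to 1.05), a pair chosen after its values were seen. Slc17a6 and Slc17a8, the other vesicular glutamate transporters, held no region. The largest region at Slc17a7, chr7:45174051-45187750, overlapped the end of the gene and continued beyond it over Gfy, Pth2 and Kash5. It held 4397, 4286 and 4528 for set 1 against 2780, 2839 and 2692 for set 2 in the authors' deposited table. Without it the log2 ratio of Slc17a7 was 0.66, beside 0.67 with it.

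A cluster on chromosome 13 holds Slc17a1, Slc17a2, Slc17a3 and Slc17a4, transporters of phosphate and organic anions in kidney and gut. Slc17a1 had sums of 3998, 4249 and 3774 for set 1 against 3572, 3490 and 3581 for set 2, without overlap (1.129-fold). Slc17a4 was 1.195-fold higher in set 1 without overlap. At equal sums the sets overlapped for both. Slc17a3 had 4066, 4054 and 3680 for set 1 against 3842, 3965 and 3839 for set 2, with overlapping sets (log2 0.02, exact permutation p = 0.8), and Slc17a2 overlapped too (1.103-fold). Slc17a9, the vesicular nucleotide transporter, overlapped at 1.163-fold, and Slc17a5, the lysosomal sialic acid carrier, held no region.

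In the Slc18 family few regions were listed. Slc18a2, the vesicular monoamine transporter of neurons, held 2 regions with sums of 608, 626 and 637 for set 1 against 699, 858 and 726 for set 2, higher in set 2 without overlap (1.22-fold). Slc18a3, the vesicular acetylcholine transporter, held 1 region, in its flank and shared with Chat, with 116, 117 and 91 for set 1 against 133, 154 and 145 for set 2 in the authors' deposited table. These values did not overlap (1.333-fold, set 2 higher). With a flank of 5 kb the sets overlapped (log2 −0.21), and with no flank no region remained. Slc18a1, the endocrine vesicular monoamine transporter, had sums of 482, 611 and 440 for set 1 against 384, 319 and 544 for set 2. Its sets overlapped, with pair ratios from 0.809 to 1.915 (exact permutation p = 0.4).

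Of the proton-coupled carriers, Slc36a1, Slc36a2 and Slc36a3 lie side by side on chromosome 11. Slc36a3 had sums of 4762, 4485 and 4511 for set 1 against 3348, 3511 and 3178 for set 2, without overlap (1.371-fold). Slc36a2, a transporter of small amino acids in the kidney, had 4839, 4923 and 5453 for set 1 against 4444, 4327 and 4537 for set 2, also without overlap (1.143-fold), but at equal sums its log2 ratio was 0.0025 and the sets overlapped. Slc36a1, the lysosomal and intestinal carrier, held 1 region in its flank, at 94, 72 and 79 for set 1 against 43, 31 and 79 for set 2 in the authors' deposited table. A set 2 library equalled the middle set 1 value there, so the sets overlapped (exact permutation p = 0.3). Slc36a4 held no region.

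Among the sodium-coupled neutral transporters of Slc38, 6 of 10 genes held no region, Slc38a1, Slc38a2, Slc38a4, Slc38a6, Slc38a7 and Slc38a10. Slc38a3, a glutamine transporter of liver and kidney, had sums of 2653, 2906 and 2662 for set 1 against 1952, 2147 and 1977 for set 2 (1.353-fold). Slc38a11 had 1758, 1954 and 1801 for set 1 against 1377, 1166 and 1560 for set 2 (1.344-fold). Both were higher in set 1 without overlap, but for Slc38a11 the sets overlapped at equal sums (log2 0.23). Slc38a8 had 2222, 2267 and 2004 for set 1 against 2160, 2183 and 2149 for set 2, with overlapping sets and an exact permutation p of 1.0. Slc38a9, a lysosomal arginine sensor, was 1.271-fold higher in set 2 without overlap, from 2 regions.

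Ratios along 5 of the genes were read over 3 equal segments, each a ratio of sums over regions listed separately, which differ in number and length between segments. Slc1a2 was split into 3 equal segments of 44.18 kb from its 5′ edge. The ratio of set 1 to set 2 was 1.634-fold in the first (1.512 to 1.728), 1.78-fold in the middle (1.649 to 1.914) and 2.501-fold in the last (2.205 to 2.735). The first segment held 20 regions over 33.85 kb and the last 47 over 15.85 kb, so these ratios do not compare like stretches. Slc1a1 was 1.718-fold higher in set 2 in its first segment (1.635 to 1.872), and 1.262-fold and 1.358-fold higher in the middle and last. The 3 segments of Slc6a3 stood between 1.34-fold and 1.432-fold, with overlapping ranges. At Slc7a14, 21 of 26 regions lay in the first segment and none in the middle one. Slc7a9 changed direction along its length. It was 1.377-fold higher in set 1 in its first segment (1.204 to 1.582). In its last segment it was 1.129-fold higher in set 2 (1.003 to 1.229), from 3 regions over 1.45 kb. The sign of the ratio also differed between segments at Slc6a17, Slc17a2, Slc17a3 and Slc38a8. At Slc17a2 the sets overlapped in all 3 segments. At Slc6a17 and Slc17a3 they overlapped in every segment with set 2 higher, and at Slc38a8 in the one with set 1 higher. A change of direction was therefore not shown at these genes.

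**Figure D4:**
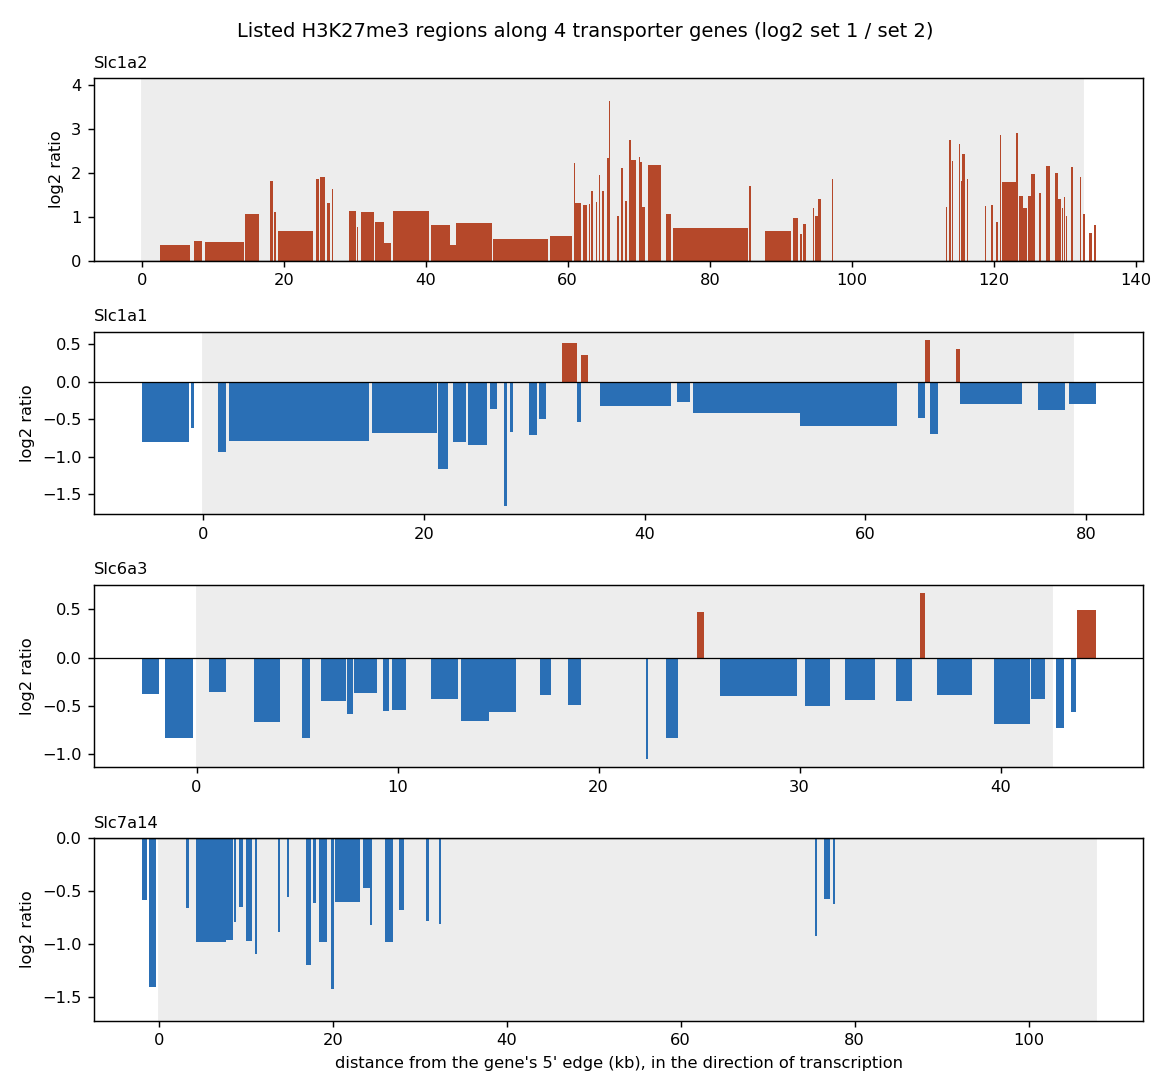
Each listed region along Slc1a2, Slc1a1, Slc6a3 and Slc7a14, drawn to its length at its distance in kb from the gene's 5′ edge, with the height giving the log2 ratio of set 1 over set 2; the gene span is shaded. All 97 regions of Slc1a2 are above 0 and all 26 of Slc7a14 below it, while 4 of 27 at Slc1a1 and 3 of 29 at Slc6a3 go against the rest.

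Transporter genes with many regions often held both directions. Of the 25 genes with at least 10 regions, 5 had all of them in the same direction (20%), beside 32.3% of 2630 such genes of the genome. These were Slc1a2, Slc6a4, Slc6a16, Slc7a14 and Slc7a15. At the 5 starts covered by a listed region, set 1 was higher in 4 of these regions and set 2 in 1. The exception was Slc7a8, where the region at the start held 65, 61 and 67 for set 1 against 112, 99 and 85 for set 2 in the authors' deposited table, against the direction of the gene's sum.

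Transporter genes mostly shared the direction of the regions around them. Regions within 100 kb beyond the gene were listed for all 44, and their sum had the direction of the gene at 38 (86.4%), beside 85.3% of 6587 genes. At equal sums the direction was shared at 36. The region next to Slc6a7 stood in surroundings that were also higher in set 1, with 67 of 67 neighbouring regions in that direction and a log2 ratio of 1.95. Slc6a2 and Slc7a2 were higher in set 1 (log2 0.68 and 0.96) beside surroundings higher in set 2 (−0.28 and −0.37), none of these with overlapping sets. Slc7a10, Slc18a2 and Slc18a3 were higher in set 2 beside surroundings higher in set 1 (0.57, 0.12 and 0.11). At equal sums the surroundings of Slc18a2 and Slc18a3 were also higher in set 2 (−0.07 and −0.09), while those of Slc7a10 stayed higher in set 1 (0.37). Slc6a18, with overlapping sets, was the sixth. Between neighbouring transporter genes, 7 of 15 pairs had a within-library ratio that did not overlap between the sets. Each of these had an exact permutation p of 0.1, or 0.2143 after adjustment over the 15. Pairs within the Slc17 and Slc36 clusters reuse the same genes, so the 15 are not separate comparisons. Every sum was also built from regions picked because the sets differed there, which favours such a result. How often neighbouring pairs of other genes behave this way was not computed, so whether the count is particular to transporters is unknown. Slc6a3 and Slc6a18, 83.08 kb apart, differed by −0.65 on the log2 scale (−0.87 to −0.40), and Slc6a18 and Slc6a19, 1.721 kb apart, by −0.36 (−0.57 to −0.12), although these last share 2 regions.

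**Figure D5:**
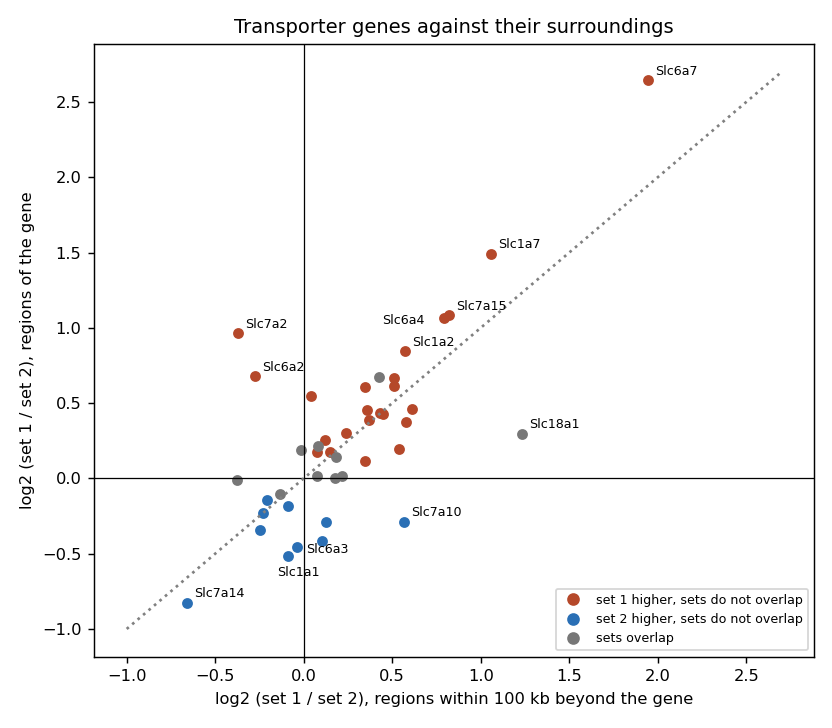
Log2 ratio of set 1 over set 2 at 43 of the genes (vertical axis) against that of the listed regions within 100 kb beyond the gene (horizontal axis); the dotted line marks equal ratios and colours give whether the gene's sets overlap. Of these, 37 genes lie in the quadrants of shared direction, and Slc7a2, Slc6a2 and Slc7a10 lie farthest into the others.

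Of the 21 transporter genes with no listed region, 17 had listed regions within 100 kb, with sums higher in set 1 at 15 and in set 2 at 2. The same share was not computed over all genes without a region. The median length of the 21 genes was 47.4 kb, beside 32.31 kb for the transporter genes with regions. Over all autosomal protein-coding genes the order was reversed, with 15.65 kb for genes without regions and 22.65 kb for genes with them.

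Genes that make or break down the same transmitters were read alongside. Of 23 such genes, 14 held regions (60.9%, beside 32.7% of all genes), with set 1 higher without overlap at 9, set 2 at 2 and overlap at 3. Over all genes with regions these shares were 58.7% for set 1 and 22.5% for set 2, near 9 and 2 of 14. Ddc, the decarboxylase of dopamine and serotonin synthesis, was 2.043-fold higher in set 1, Dbh, which makes noradrenaline, 1.837-fold and Hdc, which makes histamine, 1.841-fold. Tph1 and Tph2, the tryptophan hydroxylases of serotonin synthesis, were 1.351-fold and 1.353-fold higher in set 1. The genes higher in set 2 were Gad2, a GABA-synthesising enzyme (1.21-fold, 1.091 to 1.325), and Th, the first enzyme of dopamine synthesis (1.12-fold, 1.037 to 1.195). Gad1, the other GABA-synthesising enzyme, overlapped at 1.027-fold. Among 14 partner subunits and other carriers, 8 held regions (57.1%), with set 1 higher without overlap at 6, set 2 at 1 and overlap at 1. Slc43a2, a carrier of large neutral amino acids, was 3.978-fold higher in set 1 with 41 of 41 regions in that direction. Slc16a10, an aromatic amino acid carrier, was 3.924-fold higher in set 1 (2.863 to 5.188), from 6 regions of 0.8 kb in all. Its sums were low, at 166, 151 and 146 for set 1 against 32, 51 and 35 for set 2. Regions were also listed at 4 of 10 neuron markers (40%), 3 of 5 astrocyte markers and 5 of 6 epithelial markers, and at 0 of 11 fibroblast markers, beside 32.7% of all genes. The lists are short and were not tested against each other.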

How the data were processed

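H3K27me3 chromatin immunoprecipitation was sequenced from 6 libraries of 3T3 cells, 3 per construct, with 2 inputs not used here. Per the labels' protocols, chromatin was fixed with 1% formaldehyde and cut with micrococcal nuclease. The tools CASAVA, Trimmomatic 0.36 and BWA 0.7.17 and the build GRCm38 are named per the submitters' processing notes. The region caller, the scaling of values and the part of the inputs were not given in the sources used here. In the deposited table a region has 6 whole numbers of unstated scale, which the authors may have rescaled, so they were not treated as counts and no count model was fitted. Depth is unknown. The deposited −log10 p value was not used beyond noting that its lowest value was 1.0, so the list is a selection.

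Regions were assigned to RefSeq GRCm38 spans plus 2 kb, and values were summed per gene, family and library. Ratios are of sums, with a pseudocount of 1 on the log2 scale. Sets were compared with two-sided exact permutation tests and Benjamini-Hochberg adjustment over 28 family and 15 neighbour pairs. Genes named with all values were the 3 with the largest sums per family and those at least 1.5-fold apart without overlap, 29 in all. Slc6a3, Slc6a5 and Slc6a16 were added by role after their values were seen. The 65 genes and all gene lists were chosen with earlier results of these data known. A result for 1 gene is not reported here. The overlap and test steps were tested on simulated data. Python 3.11.15, pandas 2.3.3, numpy 2.4.6 and scipy 1.17.1 were used. Alternatives covered the flank, the regions used, shared regions, the scaling, the pseudocount, the family summary and each library.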

Additional observations from a re-analysis of the deposited data

How the results depend on the processing

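No paired analysis was possible because the deposited table ties no value to a numbered library. Of 461 values of the 32 genes given with 6 values by rule or by role, under the alternatives, 429 kept their direction and their side of the overlap criterion, 16 reversed, 10 gained the lack of overlap and 6 lost it, and 20 genes never changed, Slc6a3, Slc6a5 and Slc6a16 among them, which were put through the alternatives after seeing the data. The cause of the changes was not tested. Many of the 429 were fixed beforehand. Pseudocounts of 0.5 and 10, with 32 values each, could change neither direction nor overlap. Leaving out a library could not change a gene whose sets did not overlap. The tally is therefore no measure of how stable the results are. With the libraries at equal sums the log2 ratio over all transporter genes was −0.0657, and Slc1 stood at −0.0580, Slc6 at −0.14, Slc7 at −0.0221, Slc18 at −0.28 and Slc38 at 0.0531, with Slc6a17 at −0.17, Slc7a9 at −0.0814, Slc17a1 at −0.0181, Slc17a3 at −0.17 and Slc38a8 at −0.19. With regions touching the span alone, Slc18 was 0.12. With regions whose sets do not overlap, Slc6 was 0.11, Slc18 −0.22, Slc17a3 −0.0049 and Slc38a8 −0.026. With regions of at least 2-fold, 24 genes held a region, 19 one higher in set 1 and 8 one higher in set 2. Slc6 was then 1.54, Slc18 1.13 and Slc6a11 1.09, and 9 family pairs did not overlap. With regions of at least 500 bp Slc1 was 0.0571 and overlapped. As a median over genes, Slc1 was 0.73, Slc6 0.25, Slc17 0.20, Slc18 −0.29 and Slc36 0.45. Without Slc7a8 the Slc7 sum was 0.0444 and overlapped, and without Slc18a2 the Slc18 sum was 0.15. Leaving out each library in turn gave 0.11 to 0.15 for all transporter genes, 0.0224 to 0.0954 for Slc6 and −0.154 to −0.0354 for Slc18, the last 2 losing their overlap without 1 library each, and 21 to 24 family pairs without overlap. The number of family pairs could not fall below 21, because leaving out a library cannot create overlap. Near 0, Slc17a3 ranged from −0.0056 to 0.0647, Slc38a8 from −0.0344 to 0.0527 and Slc6a17 from −0.0110 to 0.0555. Depth is unknown, so no counting limit can be given.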
